A study of Mus musculus with 6 samples.

Results

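Gamma-secretase and the ADAM sheddases are the proteases that cut membrane receptors in sequence, and 9 of their genes in mouse kidney are described here. They were chosen by gene symbol: the gamma-secretase subunit genes Psen2, Ncstn, Aph1a, Aph1b, Aph1c and Psenen, and the sheddase genes Adam9, Adam10 and Adam17. In the platform annotation, 18 of 45037 probe sets named 1 of these genes and no other, 10 for gamma-secretase and 8 for the sheddases, and they covered 8 of the 9 genes. A probe set is a group of short oligonucleotides on the array whose signals are summarised as 1 value. Aph1c had no probe set of its own.

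A sheddase first removes the outer part of a receptor at the cell surface. Gamma-secretase then cuts the remaining stub inside the membrane and frees the intracellular domain into the cell, as it does for Notch receptors. Its active centre is a presenilin such as presenilin 2 (Psen2), held together with nicastrin (Ncstn), which receives the stub, an APH-1 scaffold (Aph1a, Aph1b or Aph1c) and PEN-2 (Psenen), which activates the presenilin. Megalin, the endocytic receptor of the proximal tubule encoded by Lrp2, is known as a receptor cut in this way.

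Kidney RNA was hybridised on 1 Affymetrix array per animal. In 3 arrays the mice were heterozygous for the soluble intracellular domain of megalin (ICD group, titled TG), and in 3 they were wild type littermates. All were males aged 10 weeks, and the replicates are separate animals. The labels do not name the promoter or locus from which the domain was expressed. The comparison asks whether transcripts of these gamma-secretase and ADAM genes differ between the groups.

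Array medians lay between 6.62 and 6.66 on the log2 scale, and correlations between arrays between 0.995 and 0.997. Kidney markers were bright, with Slc34a1 of the proximal tubule at a mean of 14.12 and Umod of the thick ascending limb at 14.38. The adrenal genes Cyp11b1, Star and Cyp21a1 averaged 4.88, 7.08 and 7.04. Adipoq, a gene of fat tissue, averaged 10.13. Whether tissue from outside the kidney was present was not tested. The array labelled wild type 3 stood apart in proximal tubule markers. The median deviation of 7 of them from the mean of all arrays was -0.20 there and -0.035 to 0.10 on the others. The drop was uneven. Slc5a12 read 4.12 there against 9.27 to 10.47 elsewhere, Slc6a19 9.43 against 10.63 to 11.15 and Slc5a2 10.40 against 11.29 to 11.96. Lrp2 1452320_at, Cubn and Slc22a6 read 12.78, 12.50 and 13.06 there, against 12.77 to 12.93, 12.51 to 12.64 and 13.06 to 13.17. Of these 7 markers, 6 had a higher mean in ICD and 1 a lower one, while 43.9% of all named genes were higher. Slc6a19 read 11.15, 11.09 and 11.07 in ICD and 10.81, 10.63 and 9.43 in the wild types (limma adjusted p = 0.809). It was the 1 marker of the 7 (14.3%) whose groups did not overlap, against 9.10% of all named genes. Endothelial and stromal marker medians deviated by 0.29 and 0.34 on wild type 1, by -0.36 and -0.28 on wild type 3 and by 0.17 and 0.35 on ICD 3. Podocyte markers lay higher on every ICD array than on any wild type array for 4 of 4 genes, against 9.10% of all named genes, with a median difference of 0.38. None passed the test, although 4 of 4 had an unadjusted p under 0.05, against 3.94% of all named genes. In a whole kidney, fewer cells of a type and less RNA per cell cannot be told apart. Of the Lrp2 probe sets, 1452320_at differed by 0.0079 (ICD minus wild type, log2), 1445901_at by 0.12 and 1427133_s_at by -0.41, and the last read 13.01, 12.97 and 12.13 in wild type 1, 2 and 3 and 12.25, 12.37 and 12.26 in ICD 1, 2 and 3. These probe sets do not settle the genotype labels, since it is not given where each lies relative to the expressed domain.

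Aph1b and Aph1c are neighbouring copies on chromosome 9, with 1 annotated gene between them, which codes for no protein. Their upstream sequences are shown because 1 probe set is annotated to both genes, whereas these stretches differ. Each is the 250 bases before the RefSeq start in GRCm38.p6, on the minus strand: chr9:66795424-66795673 for Aph1b and chr9:66834707-66834956 for Aph1c. Capitals mark GC boxes (GGGCGG or, on the other strand, CCGCCC).
Aph1b: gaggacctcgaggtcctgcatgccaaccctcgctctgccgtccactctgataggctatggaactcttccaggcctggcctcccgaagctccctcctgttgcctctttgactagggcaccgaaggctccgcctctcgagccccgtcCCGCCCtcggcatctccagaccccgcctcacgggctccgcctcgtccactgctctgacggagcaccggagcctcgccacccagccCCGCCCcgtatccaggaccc
Aph1c: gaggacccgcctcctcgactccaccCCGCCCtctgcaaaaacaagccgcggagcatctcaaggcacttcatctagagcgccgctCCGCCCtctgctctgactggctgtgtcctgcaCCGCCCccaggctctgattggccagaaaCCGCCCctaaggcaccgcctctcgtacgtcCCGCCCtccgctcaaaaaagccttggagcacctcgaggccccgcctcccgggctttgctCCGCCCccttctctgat
The Aph1b stretch holds 2 GC boxes and the Aph1c stretch 6. In a global alignment 145 of 222 paired bases were identical (65.3%), with 56 gap positions. RefSeq windows were listed for 8 of the 9 genes, all but Adam9, 10 windows in all: 6 of the 10 held a GC box, against 32.7% of all 32851 windows, and none held TATAAA on either strand, against 12.4%.

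The rank by signal in kidney put the PEN-2 gene first. Psenen averaged 11.77 (log2, mean of 6 arrays) and lay above 97.1% of all probe sets. At their brightest probe sets, Adam9 (10.85), Adam10 (10.63) and Aph1a (10.20) followed, at the 94.2, 93.2 and 90.9 percentiles. Aph1b (9.32), Ncstn (9.19), Psen2 (8.94) and Adam17 (8.78) came next, at the 84.1, 83.0, 80.5 and 78.9 percentiles. All 8 brightest probe sets read well above the median of all probe sets, 6.64. Taking the brightest favours a high reading, and does so unequally, since Adam10 had 4 probe sets and Psenen and Adam9 had 1 each. The probe set 1429466_s_at is annotated to both Aph1b and Aph1c and has no place in this rank. It averaged 10.32, at the 91.6 percentile. The ranges over 6 arrays overlapped for 7 of the 17 neighbours in the full order of 18, among them Adam9 with Adam10, Aph1b with Ncstn and Psen2 with Adam17.

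This is an order of array signals and not of transcript numbers, because probe sets bind their targets differently. The 4 Adam10 probe sets averaged from 5.31 to 10.63, although they are annotated to 1 gene, and the reason was not tested. The dim Ncstn and Psen2 probe sets read 5.76 and 6.27 against 9.19 and 8.94 at the bright ones. Of the 18 probe sets, 15 reached the median signal of the array and 3 did not. Percentiles in ICD or wild type arrays alone differed from those over all 6 arrays by less than their SD pooled over both groups. That comparison cannot show equal ranks, since each group is part of the 6 arrays. The percentiles of the dim Psen2 probe set were 42.3, 40.0 and 45.1 in ICD and 45.2, 43.7 and 45.9 in the wild types.

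**Figure D1:**
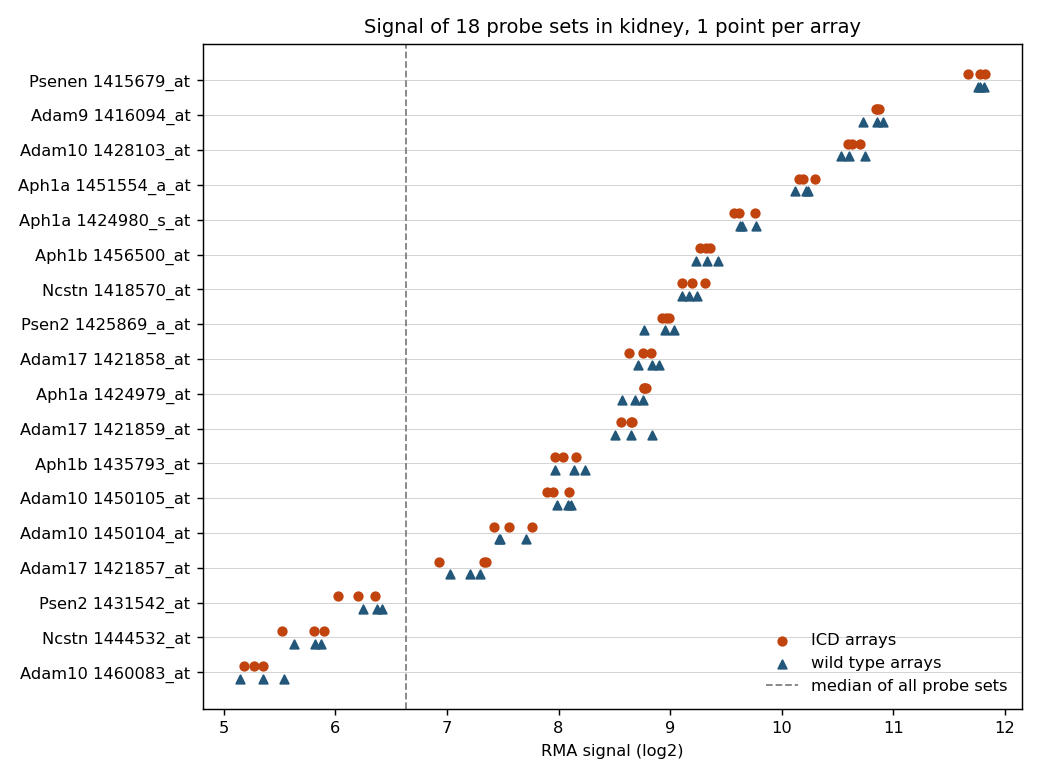
RMA signal (log2, horizontal axis) of the 18 probe sets of gamma-secretase and ADAM genes, ordered by mean, with circles for the 3 ICD arrays, triangles for the 3 wild type arrays and a dashed line at 6.64, the median of all probe sets. ICD and wild type points lie among each other for 17 probe sets, whereas distances between probe sets reach several log2 units.

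No gamma-secretase or ADAM probe set passed the test of a genotype difference. In limma, 0 of the 18 probe sets passed an adjusted p of 0.05, as did 0% of all 45037, and 0 of 18 had an unadjusted p under 0.05, against 5.86% of all. Means were higher in ICD kidneys for 8 and lower for 10 of the 18, with a median difference of -0.021, and adjusted p lay between 0.931 and 0.996. Over the brightest probe set of each gene, differences ran from -0.077 to 0.044 with a median of 0.021. Their 95% confidence intervals all lay between 0.832 and 1.18 when written as a ratio of ICD to wild type, and between 0.794 and 1.23 without the array labelled wild type 3. Such intervals describe these estimates on a scale that RMA compresses and are not a detection limit. The ratio bounds over all 18 probe sets were 0.774 and 1.24.

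**Figure D2:**
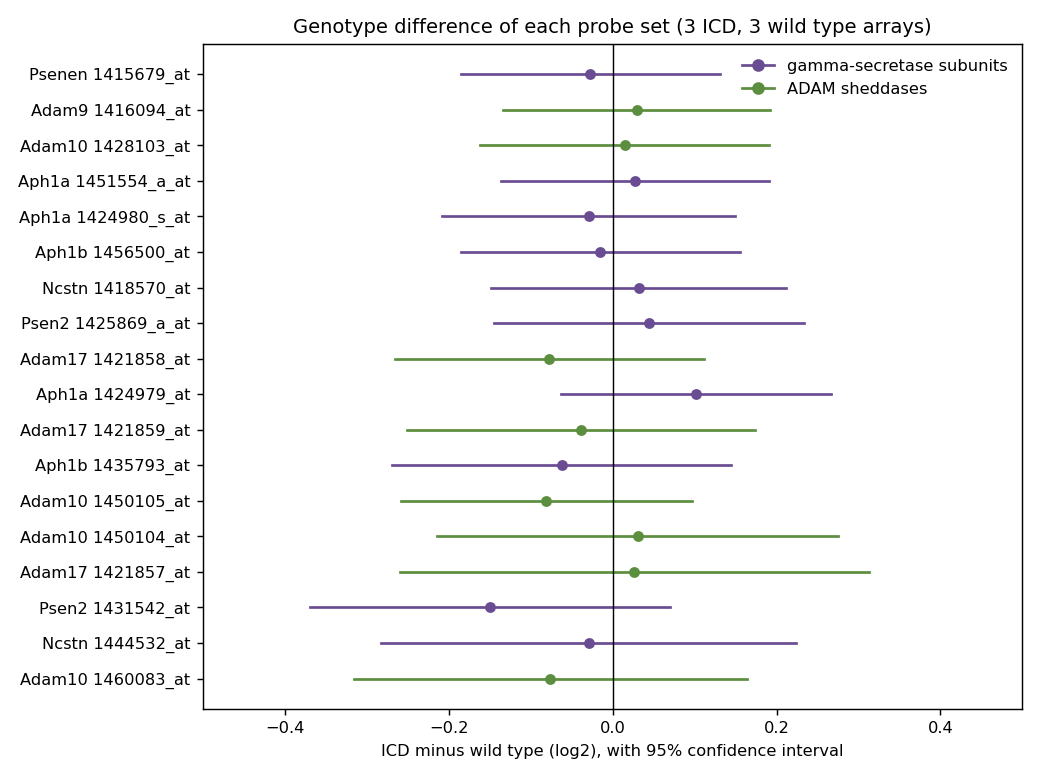
Difference of each probe set, ICD minus wild type (log2, horizontal axis), as a point with its 95% confidence interval from limma, in purple for gamma-secretase subunits and green for ADAM sheddases. Every interval includes 0, and the estimates run from -0.15 to 0.10.

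Presenilin 2 is the catalytic subunit measured here. At its bright probe set 1425869_a_at, Psen2 read 8.93, 8.97 and 8.99 in ICD 1, 2 and 3 and 8.95, 8.77 and 9.03 in wild type 1, 2 and 3. The ICD values lay inside the wild type range, and the low reading was wild type 2. The means were 8.96 ± 0.032 (SD, n = 3) and 8.92 ± 0.14, a difference of 0.044 (95% confidence interval, here called interval, -0.14 to 0.23, limma adjusted p = 0.989). The dim probe set 1431542_at read 6.20, 6.03 and 6.36 in ICD and 6.37, 6.25 and 6.41 in the wild types. It had the lowest difference of the 18, -0.15 (interval -0.37 to 0.070, limma adjusted p = 0.931), with ICD 3 above wild type 2. Without ICD 2 it was -0.066, and without ICD 3 it was -0.23, at an unadjusted limma p of 0.042 and an adjusted p of 0.829. The sign of the 2 probe sets was thus opposite, and the one with the larger difference sat below the median signal of the array.

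Nicastrin, the large glycoprotein that receives the substrate stub, gave close values in all animals. Ncstn 1418570_at read 9.11, 9.31 and 9.19 in ICD and 9.24, 9.11 and 9.17 in the wild types. The highest array was ICD 2 and the lowest were ICD 1 and wild type 2, so the groups covered nearly the same range. The difference was 0.032 (interval -0.15 to 0.21, limma adjusted p = 0.992). The dim 1444532_at ranged from 5.52 to 5.90 over the 6 arrays and differed by -0.029.

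Aph1a, the scaffold found in many tissues, had 3 probe sets. The brightest, 1451554_a_at, read 10.19, 10.30 and 10.16 in ICD and 10.12, 10.23 and 10.22 in the wild types, for a difference of 0.027 (interval -0.14 to 0.19). Its groups overlapped, with ICD 2 highest and wild type 1 lowest. The probe set 1424980_s_at differed by -0.029 (interval -0.21 to 0.15). The third, 1424979_at, read 8.76, 8.79 and 8.76 in ICD and 8.57, 8.76 and 8.68 in the wild types. It was the 1 probe set of 18 (5.56%) whose groups did not overlap, against 10.5% of all probe sets. Its lowest ICD array and its highest wild type array were both 8.76 to 2 decimals. The group means differed by 0.10 (interval -0.063 to 0.27, limma adjusted p = 0.940). Without wild type 1 the difference was 0.051, and without wild type 2 it was 0.15. The 3 probe sets of this gene did not share a sign.

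For Aph1b, the other scaffold, the brighter 1456500_at read 9.27, 9.32 and 9.36 in ICD and 9.43, 9.33 and 9.23 in the wild types. Wild type arrays gave both the highest and the lowest value. The difference was -0.015 (interval -0.19 to 0.16), and that of 1435793_at was -0.062 (interval -0.27 to 0.14). A further probe set, 1429466_s_at, is annotated to both Aph1b and Aph1c and is assigned to neither. It read 10.26, 10.34 and 10.34 in ICD and 10.41, 10.26 and 10.30 in the wild types, with a difference of -0.012 (interval -0.17 to 0.15).

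PEN-2 is the smallest subunit and completes the complex. Psenen 1415679_at read 11.67, 11.82 and 11.78 in ICD and 11.78, 11.81 and 11.76 in the wild types. The wild type arrays were tight (SD 0.026) and lay within the ICD range, which ICD 1 extended downwards. The difference was -0.027 (interval -0.19 to 0.13, limma adjusted p = 0.992), and 0.017 without ICD 1.

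ADAM10 is the sheddase that starts ligand-induced Notch cleavage and cuts cadherins. Adam10 1428103_at read 10.60, 10.70 and 10.63 in ICD and 10.60, 10.74 and 10.53 in the wild types. All ICD values lay inside the wild type range. The difference was 0.015 (interval -0.16 to 0.19, limma adjusted p = 0.996). The dimmer probe sets 1450105_at, 1450104_at and 1460083_at differed by -0.081, 0.030 and -0.076. The same array was highest at 1428103_at and 1450105_at, namely wild type 2, whereas 1460083_at was lowest there.

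ADAM17, also known as the TNF-alpha converting enzyme, frees tumour necrosis factor and ligands of the epidermal growth factor receptor. Adam17 1421858_at read 8.75, 8.83 and 8.63 in ICD and 8.84, 8.90 and 8.71 in the wild types. ICD arrays tended to the lower side but ICD 1 and 2 lay above wild type 3. They differed by -0.077 (interval -0.27 to 0.11, limma adjusted p = 0.972), the lowest value among the brightest probe sets. It kept its sign without any 1 array, from -0.13 without the array labelled wild type 3 to -0.024 without ICD 3. The probe set 1421859_at differed by -0.039 and 1421857_at by 0.027. The latter had the widest range of the 18, 0.42, from 6.93 in ICD 3 to 7.35 in ICD 2, so the spread was within 1 genotype.

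ADAM9 is a widely expressed family member with a role in adhesion and shedding. Adam9 1416094_at read 10.88, 10.86 and 10.85 in ICD and 10.86, 10.91 and 10.73 in the wild types. The ICD arrays agreed closely (SD 0.014), and the low value was the array labelled wild type 3. The difference was 0.029 (interval -0.13 to 0.19), and -0.022 without that array.

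Variation among animals lay in the middle of what probe sets of this brightness showed. Compared with all probe sets within 0.25 log2 units of the same mean, the pooled SD of the 18 lay between the 23.7 and 88.7 percentiles, with a median at 51.2. The least variable was Aph1a 1424979_at and the most variable Adam17 1421857_at. Ranges over the 6 arrays ran from 0.15 for Psenen to 0.42. No array was extreme throughout: ICD 2 was highest for 6 of the 18 and wild type 2 for 5, while the array labelled wild type 3 was lowest for 5 and highest for 3.

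The sign of most differences rested on single animals. With each array left out in turn, 5 of the 18 probe sets kept their sign in all 6 fits and 13 turned in at least 1. Those that kept it were Adam17 1421858_at, Aph1a 1424979_at, Aph1b 1435793_at, Adam10 1450105_at and Psen2 1431542_at. Their sizes still depended on 1 animal, since Aph1b 1435793_at was -0.00090 without wild type 2 and Adam10 1450105_at -0.039 without ICD 3. Without ICD 2, 4 of 18 differences were positive, and without ICD 1 there were 10.

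**Figure D3:**
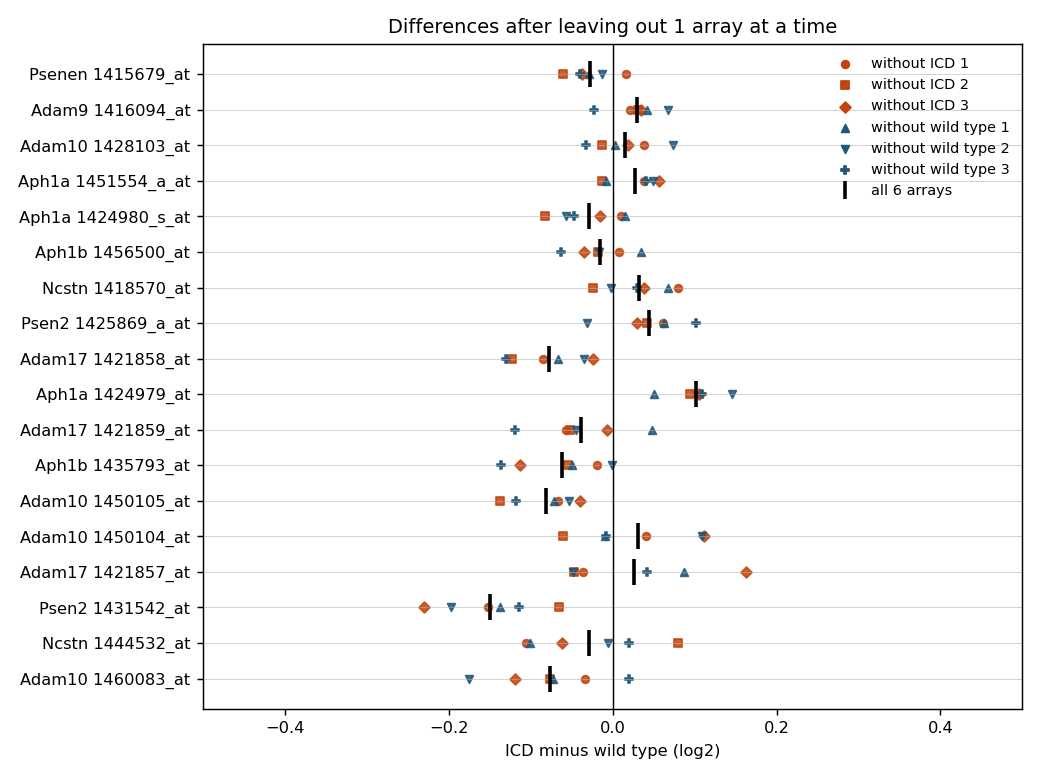
Difference of each probe set, ICD minus wild type (log2, horizontal axis), with all 6 arrays (black bars) and with 1 array left out (red symbols for ICD arrays, blue for wild type arrays). The symbols of 13 probe sets fall on both sides of 0, and all lie between -0.23 and 0.16.

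The genes most like Ncstn and Adam10 across the 6 arrays were taken by Pearson r among named probe sets that reached the median signal. For Ncstn 1418570_at they were Rock1 (r = 0.996), a kinase of the actin cytoskeleton, Tcf12 (0.987), a helix-loop-helix transcription factor, and Pcp2 (0.987). For Adam10 1428103_at they were Map3k3 (0.997), a kinase of the MAP kinase cascade, Zfp597 (0.994) and Ubp1 (0.988), a transcription factor. With 6 arrays and 19654 or 19652 probe sets compared, 44 and 50 probe sets exceeded an r of 0.95. These correlations are descriptive, over arrays that share 1 normalization.

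The wider cleavage pathway was described through lists of other genes, with 1 probe set per gene, the brightest. Over all 18193 named genes 43.9% were higher in ICD kidneys, the median difference was -0.012, and the groups did not overlap for 9.10%. No gene of any of the 7 pathway lists passed the limma test.

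Other sheddases and membrane-bound metalloproteinases were measured for 13 genes, 7 higher and 6 lower in ICD kidneys, with a median difference of 0.0078. Adam15, a family member of epithelial and vascular cells, had the lowest difference among the brighter genes, -0.11 (interval -0.30 to 0.074), and Mmp14, a membrane-anchored matrix metalloproteinase, the highest, 0.065 (interval -0.16 to 0.29). Adam15 read 9.65, 9.54 and 9.75 in ICD and 9.74, 9.68 and 9.85 in the wild types, so the groups overlapped. Without ICD 2 it differed by -0.058. The Adam15 probe sets 1416080_at, 1425170_a_at and 1454206_a_at differed by -0.056, -0.068 and 0.0032. The Mmp14 probe sets 1416572_at and 1440920_at differed by 0.12 and -0.066.

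Genes that mature, carry or inhibit sheddases were lower for 13 and higher for 7 of 20, with a median of -0.020. Furin, the protease that removes ADAM prodomains, differed by -0.012 (interval -0.19 to 0.17). The inactive rhomboids Rhbdf1 and Rhbdf2, which escort ADAM17 to the surface, differed by 0.19 (interval -0.051 to 0.43) and 0.046 (interval -0.19 to 0.29). Without the array labelled wild type 3 Rhbdf1 differed by 0.074. The tetraspanins that partner ADAM10 gave -0.0058 for Tspan15 and -0.17 (interval -0.36 to 0.030) for Tspan5, which was -0.11 without ICD 1. A dimmer Tspan5 probe set, 1431530_a_at, had groups that did not overlap and a difference of -0.28 (interval -0.51 to -0.045, limma adjusted p = 0.796). The other tetraspanins of the list, Tspan10, Tspan14, Tspan17 and Tspan33, ran from -0.069 to 0.011. Timp3, the matrix-bound inhibitor of ADAM17 and ADAM10, read 13.52, 13.60 and 13.76 in ICD and 13.66, 13.51 and 13.38 in the wild types, for a difference of 0.11 (interval -0.11 to 0.33) and 0.041 without the array labelled wild type 3.

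Pcsk6, a proprotein convertase of the same family as furin, had the largest difference of the brighter genes in this list. It read 7.22, 7.77 and 7.68 in ICD and 7.13, 7.07 and 7.18 in the wild types. The groups did not overlap, but ICD 1 lay close to the wild type arrays. The difference of 0.43 (interval 0.12 to 0.74) had a limma adjusted p of 0.720, so it did not pass, and it was 0.33 without ICD 2 and 0.60 without ICD 1. The median deviation of podocyte markers was 0.13, 0.16 and 0.21 in ICD and -0.038, -0.24 and -0.38 in wild type arrays, and its part in this value was not tested. Groups also did not overlap for Frmd8 (-0.11) and Timp4 (-0.14), named after their values were seen. This makes 3 of 20 genes (15%), against 9.10% of all named genes.

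Genes of gamma-secretase assembly and trafficking were lower for 9 and higher for 6 of 15, with a median of -0.015. Tmed10, a cargo receptor that binds the complex and modulates it, read 10.08, 10.09 and 9.99 in ICD and 10.12, 10.12 and 10.10 in the wild types. The groups did not overlap, and the difference was -0.057 (interval -0.21 to 0.092, limma adjusted p = 0.977) and -0.024 without ICD 3. Ubqln1 (-0.073), named after its values were seen, was the other gene of this list without overlap, which makes 13.3% against 9.10% of all named genes. Rer1, which retains unassembled subunits, differed by 0.015. Dnajc13 (0.17) and Slc2a13 (-0.15) marked the ends of the list among brighter genes, at intervals of -0.047 to 0.38 and -0.47 to 0.18. Without the array labelled wild type 3 these were 0.084 and -0.055. The dimmer Dnajc13 probe set 1445337_at differed by 0.25 (interval -0.048 to 0.55). Of the related intramembrane aspartyl proteases, Sppl2a differed by 0.027 and Sppl2b by -0.0079, with a median of 0.027 over 3 genes that was -0.032 without wild type 1. Sppl2a differed by 0.0049 without the array labelled wild type 3, and its probe sets 1425193_at and 1450459_at by -0.037 and 0.14.

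Receptors and adhesion proteins cut by gamma-secretase were higher in ICD kidneys for 27 and lower for 15 of 42, with a median of 0.024, and 0 of them had an unadjusted p under 0.05. Leaving out the array labelled wild type 3 gave a median of -0.0084, and averaging every probe set of each gene gave -0.010. Notch1 read 8.25, 8.24 and 8.54 in ICD and 8.28, 8.11 and 8.10 in the wild types, for a difference of 0.18 (interval -0.043 to 0.41) that was 0.087 without ICD 3. The dimmer Notch1 probe set 1418633_at differed by 0.16 (interval -0.044 to 0.36). Notch2 differed by 0.12 (interval -0.089 to 0.33, and 0.038 without ICD 3) and its dimmer probe set 1451889_at by -0.066. The adherens junction protein Cdh1 differed by -0.060 (interval -0.23 to 0.11), and by -0.025 without the array labelled wild type 3. Erbb4, a growth factor receptor, read between 3.33 and 3.89 on all arrays, near the bottom of the scale. Ptprf, a receptor phosphatase, had the largest positive difference of the list, 0.33 (interval -0.39 to 1.05), but ranged from 10.62 in wild type 1 to 12.06 in ICD 2 and turned to -0.044 without wild type 1. The Ptprf probe sets 1420841_at and 1420842_at differed by 0.37 and 0.072. Sdc3, a heparan sulfate proteoglycan, had the lowest, -0.15 (interval -0.34 to 0.047), and -0.064 without ICD 2. Its probe sets 1436482_a_at and 1450027_at differed by -0.10 and -0.056. At the brightest probe sets, Sdc3 was the 1 gene of the 42 (2.38%) whose groups did not overlap, against 9.10% of all named genes.

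Ligands and receptors shed by ADAM10 or ADAM17 were higher for 13 and lower for 14 of 27, with a median of -0.00020. Egf, the epidermal growth factor precursor made in the distal nephron, differed by 0.010 (interval -0.18 to 0.20). Kl, the membrane hormone receptor klotho, read 12.92, 12.90 and 12.99 in ICD and 12.90, 12.88 and 12.77 in the wild types, for a difference of 0.088 (interval -0.072 to 0.25) that was 0.046 without the array labelled wild type 3. At the dimmer Kl probe set 1451892_at the groups overlapped and the difference was -0.062. Tnfrsf1b, a receptor of tumour necrosis factor, read 7.37, 7.33 and 7.37 in ICD and 7.29, 6.98 and 7.19 in the wild types. Its difference of 0.21 (interval 0.0081 to 0.41) had a limma adjusted p of 0.840 and was 0.12 without wild type 2, and its other probe set 1448951_at differed by 0.022. Groups did not overlap for 4 of the 27 genes (14.8%), against 9.10% of all named genes. They were Tnfrsf1b, Kl and, named after their values were seen, Mertk (0.064) and Lag3 (0.23). Tgfa, a ligand of the epidermal growth factor receptor, had the lowest difference among brighter genes, -0.13 (interval -0.38 to 0.11), and -0.059 without wild type 2. The dimmer Tgfa probe sets 1421942_s_at and 1450421_at differed by -0.10 and -0.14 (interval of the latter -0.30 to 0.014). At 1450421_at the groups did not overlap (limma adjusted p = 0.875).

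Notch target genes, nuclear partners and regulators of the pathway were higher for 11 and lower for 10 of 21, with a median of 0.0017. Hes1, the main target in many cells, read 8.78, 8.83 and 8.67 in ICD and 8.89, 8.86 and 8.78 in the wild types, for a difference of -0.080 (interval -0.25 to 0.089) that was -0.032 without ICD 3. Hey1, another target, differed by 0.062 (interval -0.092 to 0.22), and by 0.030 without ICD 1. The ends of the list among brighter genes were Dtx4, a Notch-binding ubiquitin ligase, at 0.11 and Pofut1, which adds fucose to Notch, at -0.097, or -0.16 without ICD 3. The dimmer Dtx4 probe set 1455711_at differed by 0.13, and the Pofut1 probe sets 1450137_at and 1456323_at by 0.033 and 0.0035. Groups overlapped for all 21 genes, whereas they did not for 9.10% of all named genes.

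**Figure D4:**
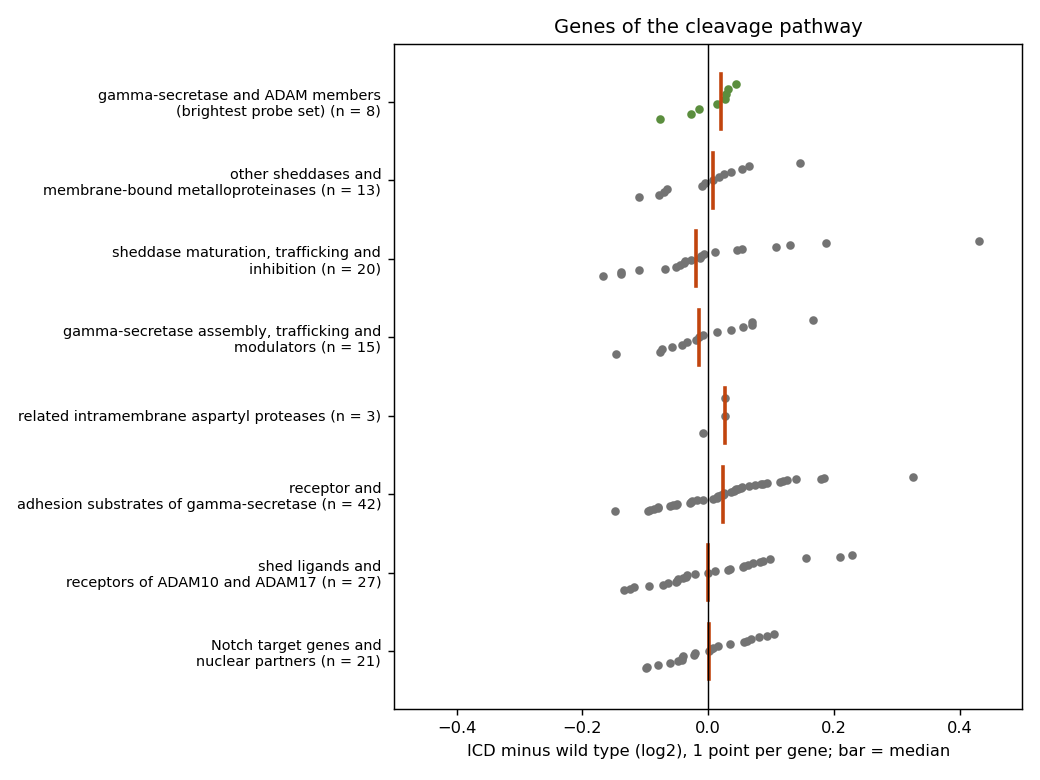
Difference of each gene at its brightest probe set, ICD minus wild type (log2, horizontal axis), for the 8 measured gamma-secretase and ADAM genes (green) and 7 lists of pathway genes (grey), with red bars at the list medians. Medians lie between -0.020 and 0.027, and Pcsk6 at 0.43 is the point farthest from 0.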

How the data were processed

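The deposited values are log2 signals made by the authors with RMA, per the submitters' processing notes. RMA corrects background, forces 1 distribution on all arrays and summarises probes, which removes global shifts and compresses differences of dim probe sets. Its version and the chip definition are not given in the sources used here. Groups and replicate numbers came from the sample titles. After 64 control probe sets were left out, the genotypes were tested with limma 3.58.1 (R 4.3.3; lmFit and eBayes, 2-sided, no covariate). P-values were adjusted by Benjamini-Hochberg over 45037 probe sets, at a threshold of 0.05. The fit was tested on simulated data. An exact permutation test of 3 against 3 cannot give a p below 0.1 and was not used. The number of arrays limits the precision. The platform annotation gave 34945 probe sets 1 symbol, 932 several and 9160 none; 34741 were found in the RefSeq table (GRCm38.p6) by Entrez identifier, and 0 symbols were updated. Members and lists were chosen with earlier results of these data known.

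Named genes outside the members were, per list, the highest and lowest difference among genes at or above the median signal, fixed names (Lrp2, Notch1, Notch2, Hes1, Hey1, Erbb4, Cdh1, Timp3, Rhbdf1, Rhbdf2, Tspan15, Furin, Tmed10, Rer1, Egf and Kl; a further name is not reported here), and the 3 most similar patterns to Ncstn and Adam10. Alternatives were quantile normalization, brighter probe sets alone, a trended and robust prior, array weights, the replicate number as a block, averaging every probe set of a gene, and leaving out each array.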

Additional observations from a re-analysis of the deposited data

How the results depend on the processing

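No alternative brought a gamma-secretase or ADAM probe set past the threshold. Over all probe sets the count was 0, and 1 with a trended and robust prior; without 1 array it ranged from 0 to 1. With the replicate block it was 0 as well, at a smallest limma adjusted p of 0.644. Same-numbered ICD and wild type arrays deviated with correlations of -0.0057, 0.0077 and -0.047, and the other pairs with -0.062 to 0.076. Such values show no shared deviation by number, but they cannot show whether the numbers pair the animals. With array weights Ncstn 1444532_at differed by 0.013, Sppl2b by 0.0048 and Lrp2 by -0.011, each of opposite sign; the cause was not tested. The other signs of the 18 probe sets held under quantile normalization, the trended prior, array weights and the block, as did those of the 15 brighter ones tested alone. Without 1 array at a time, differences whose sign turned ranged for Psenen 1415679_at from -0.060 to 0.017, Adam9 1416094_at from -0.022 to 0.067, Adam10 1428103_at from -0.032 to 0.073, Aph1a 1451554_a_at from -0.013 to 0.056, Aph1a 1424980_s_at from -0.083 to 0.015, Aph1b 1456500_at from -0.063 to 0.035, Ncstn 1418570_at from -0.024 to 0.080, Psen2 1425869_a_at from -0.031 to 0.10, Adam17 1421859_at from -0.12 to 0.047, Adam10 1450104_at from -0.061 to 0.11, Adam17 1421857_at from -0.048 to 0.16, Ncstn 1444532_at from -0.11 to 0.080 and Adam10 1460083_at from -0.18 to 0.020. Among the other named genes they ranged for Mmp14 from -0.011 to 0.14, Sppl2b from -0.061 to 0.025, Ptprf from -0.044 to 0.65, Lrp2 from -0.042 to 0.054, Erbb4 from -0.092 to 0.19, Rhbdf2 from -0.021 to 0.16, Tspan15 from -0.030 to 0.025, Furin from -0.065 to 0.043, Rer1 from -0.048 to 0.090 and Egf from -0.049 to 0.081. Medians that moved by more than the spread between arrays ranged for gamma-secretase assembly, trafficking and modulators from -0.036 to 0.015, shed ligands and receptors of ADAM10 and ADAM17 from -0.028 to 0.018 and Notch target genes and nuclear partners from -0.029 to 0.023. The other list medians stayed within that spread. No detection calls or background signals were used here, so the signal over background is unknown.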
